A study of Mus musculus with 48 samples.

Results

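Mlycd and 5 genes for enzymes that make malonyl-CoA or carry fatty acids into the mitochondrion were followed through 48 RNA-seq libraries of mouse kidney slices kept in culture. The 6 genes were chosen by name as the rows of the deposited count table whose Ensembl IDs carry the symbols Mlycd, Acaca, Acacb, Cpt1a, Cpt1b and Cpt2, and they are 6 of 55487 IDs in all. Mlycd was picked because its difference between strains was already known from these libraries to be among the largest of any gene in the oxygen conditions. For that reason its strain differences, and its changes in those conditions, are given below as values with no test.

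The slices were cut from kidneys of males of 2 inbred strains, C57BL/6J and DBA/2J, which founded the BXD family. No genetic modification is named in the labels, and ages are not given there. Each strain had 8 conditions with 3 libraries each, which makes 16 groups. These were untreated control slices at 6 h and 24 h, slices given tunicamycin (a blocker of protein N-glycosylation) or cyclosporin A (a calcineurin inhibitor) for 6 h or 24 h, a normoxia arm that the titles place at 24 h and call an ischemia model, and a normoxia-hyperoxia arm, also at 24 h, called a reperfusion model. Drug doses and the oxygen level of the control slices are not given in the sources used here. The titles put controls and drugs under nephrotoxicity and the oxygen arms under ischemia and reperfusion, and the library names carry the leading number 1 for the 6 h set, 2 for the 24 h set, 3 for normoxia and 4 for normoxia-hyperoxia. A difference between these sets therefore cannot be told apart from the change of time or oxygen that they stand for. Replicates carry only a biological replicate number, so p-values measure the spread between these libraries, and every comparison with a control re-uses that control's 6 libraries.

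Malonyl-CoA is made from acetyl-CoA by 2 carboxylases and is both the building block of new fatty acids and the brake on fatty acid oxidation. It blocks carnitine palmitoyltransferase 1 on the outer mitochondrial membrane, the step at which long-chain fatty acids are committed to enter the mitochondrion, and malonyl-CoA decarboxylase, the product of Mlycd, takes it away. Proximal tubule cells of the kidney depend heavily on this oxidation for the energy that drives reabsorption.

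Library totals ran from 5619309 to 25137581 counts, with a median of 19607361. The shallowest was replicate 2 of the DBA/2J normoxia-hyperoxia group, and the next had 12384733 counts. All 6 genes passed the filter on low counts in every comparison, and their single-library counts ranged from 38 for Acaca to 10630 for Cpt1a. Mitochondrially encoded genes took 3.11% to 25.7% of the counts. The labelled tissue was checked against proximal tubule markers, all 6 of which were detected, with a summed level of 127 to 13370 CPM (counts for every 1000000 in the library) over libraries. Of 7 adipocyte markers only Fabp4 was abundant, at 37 to 272 CPM, and Fabp4 is also made by endothelial cells. The defining adipocyte genes were near 0, with Adipoq at no more than 5 counts and Plin1 at no more than 3 counts in any library. The 5 striated muscle markers together never exceeded 2.06 CPM.

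The sequences just upstream of the start are shown for Mlycd, on which the results turn, and for Cpt2, the other member whose listed window ends where the annotated gene begins. They are the RefSeq reference (GRCm38.p6, a C57BL/6J assembly) and so do not show any DBA/2J difference. Capitals mark CCAAT and GGGCGG, the CCAAT box and the GC box, on either strand (ATTGG and CCGCCC on the other).
Mlycd, chr8:119394644-119394877, plus strand: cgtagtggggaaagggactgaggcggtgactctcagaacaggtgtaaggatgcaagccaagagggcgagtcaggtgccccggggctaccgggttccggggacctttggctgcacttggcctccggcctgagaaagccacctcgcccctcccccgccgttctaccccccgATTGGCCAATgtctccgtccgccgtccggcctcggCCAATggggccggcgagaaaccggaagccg
Cpt2, chr4:107923611-107923839, minus strand: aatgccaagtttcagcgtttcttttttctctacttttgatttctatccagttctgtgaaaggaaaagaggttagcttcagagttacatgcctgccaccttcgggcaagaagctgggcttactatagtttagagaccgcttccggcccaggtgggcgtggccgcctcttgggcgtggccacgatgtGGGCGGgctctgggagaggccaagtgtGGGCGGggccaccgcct
The Mlycd window had 3 CCAAT matches and 0 GC box matches. A CCAAT match was present in 32.5% of 32851 mouse promoter windows cut to the same 234 bases. The Cpt2 window of 229 bases had 2 GC box matches and 0 CCAAT matches, with 29.7% of windows of that length holding a GC box. Neither held ACGTG, a form of the core of hypoxia response elements, or CACGTG, an E-box, on either strand. The Cpt2 window does hold GCGTG, another form of that core, which was not searched for. Neither held the exact direct repeat bound by PPAR with its partner, which 0.03% of windows of these lengths hold. These are letter matches in a short window and nothing about a factor is drawn from them. The windows listed for Acaca, Acacb and Cpt1a lie inside the annotated genes and are not shown.

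Mlycd (ENSMUSG00000074064) lies on the plus strand of chromosome 8, 119394878 to 119411102 in GRCm38, and its exons span 2968 bases. In the 6 h controls its level was 29.5, 17.7 and 22.6 CPM in the C57BL/6J libraries and 59.3, 56.8 and 44.5 CPM in the DBA/2J libraries. At 24 h the controls gave 14.2, 14.5 and 14.3 CPM in C57BL/6J against 28.3, 29 and 30.7 CPM in DBA/2J. In both controls every DBA/2J library was above every C57BL/6J library, with mean levels 2.30 times as high at 6 h and 2.04 times as high at 24 h.

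In normoxia the strains met. The C57BL/6J libraries gave 55.2, 43.4 and 47.3 CPM and the DBA/2J libraries 48.8, 48.3 and 52.1 CPM, so the groups overlapped and the ratio of means was 1.02. The overlap rested on the C57BL/6J library at 55.2 CPM, as the others lay below every DBA/2J library. Without it the fitted log2 difference, DBA/2J minus C57BL/6J, was 0.21 (SE 0.09). In normoxia-hyperoxia they stood farthest apart, at 12.6, 14.5 and 13.8 CPM in C57BL/6J against 76.2, 80.1 and 76.7 CPM in DBA/2J. That is a mean of 13.6 ± 0.967 CPM (SD, n = 3) against 77.7 ± 2.11 CPM (SD, n = 3), a ratio of 5.71. The shallowest library is the one at 80.1 CPM, close to the other two of its group.

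**Figure D1:**
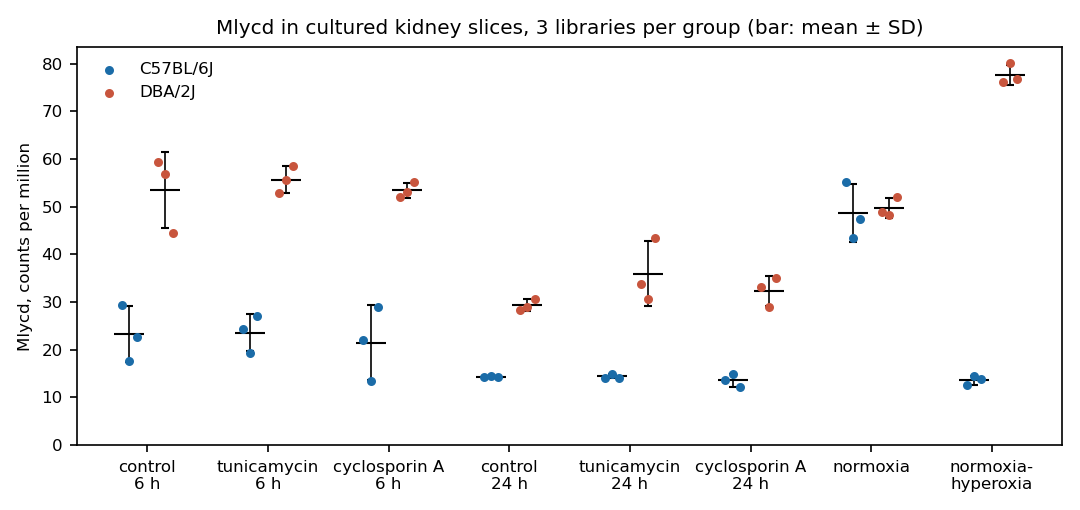
Mlycd in CPM (vertical axis) in each of the 8 conditions, with C57BL/6J in blue and DBA/2J in red. Points are single libraries and black bars the mean ± SD of 3, and a reader should see the strains overlapping in normoxia (means 48.6 and 49.7 CPM) and lying at 13.6 and 77.7 CPM in normoxia-hyperoxia.

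Fitted within strain, normoxia-hyperoxia against normoxia gave Mlycd a log2 difference of -1.84 (SE 0.10) in C57BL/6J and 0.47 (SE 0.09) in DBA/2J. The values lie on opposite sides of 0, and the DBA/2J value exceeded the C57BL/6J value by 2.31 (SE 0.14). Among 17228 genes this was the 1st by p for that difference, which is what brought the gene here, and it carries no test. Against the 24 h controls, normoxia gave log2 differences of 1.98 (SE 0.10) in C57BL/6J and 1.09 (SE 0.09) in DBA/2J, and normoxia-hyperoxia gave 0.12 (SE 0.09) and 1.55 (SE 0.08). The C57BL/6J normoxia-hyperoxia libraries lay at the level of their 24 h controls, whereas the DBA/2J ones were above every other library in the series. Leaving out each of the 12 libraries in turn kept the 2.31 between 2.2 and 2.39, and without the shallowest library it was 2.33.

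The 16 groups were ordered by their mean Mlycd level. DBA/2J normoxia-hyperoxia stood alone at the top. Next came 8 groups from DBA/2J tunicamycin at 6 h (55.6 ± 2.83 CPM, SD, n = 3) down to the DBA/2J 24 h control (29.3 ± 1.27 CPM, SD, n = 3), among them C57BL/6J normoxia as the only C57BL/6J group. The other 7 C57BL/6J groups followed, from tunicamycin at 6 h (23.5 CPM) to normoxia-hyperoxia (13.6 CPM). Neighbouring groups in this order overlapped in 13 of 15 pairs. The pairs that did not were the top one and that of the DBA/2J 24 h control with C57BL/6J tunicamycin at 6 h, although single libraries of the C57BL/6J 6 h control (29.5 CPM) and cyclosporin A group at 6 h (29 CPM) lay within the range of that DBA/2J control.

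Markers of the proximal tubule differed between the same groups, and their part in the result was not tested. Their summed level (Slc34a1, Lrp2, Cubn, Slc5a2, Slc22a6 and Slc13a3) was 6091 ± 1494 CPM (SD, n = 3) in C57BL/6J and 12310 ± 930 CPM (SD, n = 3) in DBA/2J normoxia slices, where Mlycd was level between strains. In normoxia-hyperoxia it was 156 ± 28.1 CPM (SD, n = 3) in C57BL/6J and 649 ± 135 CPM (SD, n = 3) in DBA/2J. The DBA/2J group with the highest Mlycd of the series had proximal tubule markers at 649 CPM, below the 1419 CPM of its own 24 h control. In the controls the marker sums and Mlycd were both higher in DBA/2J. At 6 h the sums were 3569 ± 1238 CPM in C57BL/6J against 5970 ± 536 CPM in DBA/2J (SD, n = 3 each). At 24 h they were 484 ± 115 CPM against 1419 ± 519 CPM (SD, n = 3 each). Mlycd was 2.30 and 2.04 times as high there. In bulk RNA, fewer cells of a type and less RNA per cell cannot be told apart.

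Immune cell markers also moved between these groups, with Ptprc, Cd68, Cd3e and Cd79a summed. They gave 37.8 ± 3.06 CPM (SD, n = 3) in C57BL/6J against 28.4 ± 2.7 CPM (SD, n = 3) in DBA/2J normoxia slices. In normoxia-hyperoxia the sums were 64.8 ± 8 CPM and 122 ± 0.527 CPM (SD, n = 3 each). By edgeR 2 of the 4 markers were lower in DBA/2J in normoxia, 4 of 4 were higher in DBA/2J in normoxia-hyperoxia, and 3 of 4 had a larger change in DBA/2J between these conditions. Of all genes, 18.5% were lower in DBA/2J in normoxia, 25.7% differed between strains in normoxia-hyperoxia and 18.2% had a strain-dependent change. The DBA/2J 24 h controls had a sum as high, 122 ± 7.77 CPM (SD, n = 3), with Mlycd at 29.3 CPM, but single markers differed. As means of both strains, 3 of the 4 markers were higher and 1 lower in normoxia-hyperoxia than in the 24 h control (edgeR). There 68.2% of all genes changed. Cd3e had a log2 difference of 2.33 (SE 0.38), Ptprc of 1.55 (SE 0.15) and Cd68 of -0.51 (SE 0.05). Mitochondrially encoded genes took 23.9% ± 1.55 and 14.1% ± 2.32 of the counts in the C57BL/6J normoxia and normoxia-hyperoxia slices, and 12.3% ± 0.534 and 13.7% ± 3.3 in the DBA/2J ones (SD, n = 3 each). The part of these markers and of this share in the Mlycd result was not tested.

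Of the 3 nearest protein-coding genes on each side of Mlycd, 4 were expressed enough to be tested. Osgin1, an oxidative stress-induced growth inhibitor gene 23 kb past the 3' end of Mlycd, gave 41, 38.7 and 44.8 CPM in C57BL/6J against 63.9, 63.2 and 70.8 CPM in DBA/2J normoxia-hyperoxia slices. In normoxia it gave 49.2, 44.3 and 50.7 CPM against 52.9, 45.5 and 37.5 CPM. The strain groups overlapped in normoxia and were separate in normoxia-hyperoxia. The change differed between strains by a log2 value of 0.59 (SE 0.17, adjusted p = 0.0242, edgeR). Hsbp1, which binds heat shock factor 1, had a difference of -0.13 (SE 0.12), Mphosph6 of -0.20 (SE 0.17) and Cdh13, the gene of T-cadherin, of 0.64 (SE 0.61), with adjusted p-values of 0.492, 0.451 and 0.511 (edgeR). Hsbp1 was higher in DBA/2J in normoxia by 0.25 (SE 0.09, adjusted p = 0.0252, edgeR). Cdh13 was lower in DBA/2J in both oxygen conditions, by log2 differences of -2.40 (SE 0.43, adjusted p = 0.00066) in normoxia and -1.77 (SE 0.43, adjusted p = 0.00978) in normoxia-hyperoxia (edgeR). Necab2 and Slc38a8 were too low to test.

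The genes most like Mlycd in log2 CPM over the 16 group means, among 12254 genes compared, were Rassf3 (Pearson r = 0.963), Rpa3 (0.933), Mvk (0.932), Ccni (0.920) and Aoc1 (0.917). These are descriptions over 16 group means that share libraries and scaling. In Rassf3, a RAS-association domain gene, the 4 oxygen groups stood at 58.2 CPM in C57BL/6J against 66.4 CPM in DBA/2J normoxia, then 33.9 and 68.0 CPM in normoxia-hyperoxia. Mvk, the gene of mevalonate kinase in cholesterol synthesis, stood at 11.2 and 16.2 CPM, then 7.08 and 13.3 CPM. Aoc1, the gene of diamine oxidase, stood at 4.24 and 11 CPM, then 2.37 and 10.2 CPM. Among the other members, the correlation with Mlycd ran from -0.69 for Acaca to 0.56 for Cpt1a.

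The carboxylases that make malonyl-CoA come next. Acaca (ENSMUSG00000020532, chr11:84129672-84401651, plus strand) encodes the cytosolic acetyl-CoA carboxylase whose product feeds fatty acid synthesis. Acacb (ENSMUSG00000042010, chr5:114146535-114250761, plus strand) encodes the form held at the mitochondrial outer membrane, whose product acts on carnitine palmitoyltransferase 1. Per kilobase of exon, group means were 0.389 to 1.12 CPM per kb for Acaca and 2.85 to 12.2 CPM per kb for Acacb, against 4.58 to 26.2 CPM per kb for Mlycd. Acacb made up the larger share of the summed carboxylase level in each group, from 74.6% ± 3.57 (SD, n = 3) in the C57BL/6J 24 h controls to 95.9% ± 0.775 (SD, n = 3) in DBA/2J normoxia-hyperoxia. Lengths count every annotated exon base of a gene, 17074 for Acaca and 9632 for Acacb, so the share depends on this choice.

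Acaca was lower in DBA/2J than in C57BL/6J. In the 24 h controls it was 17.1, 19 and 19.4 CPM in C57BL/6J against 7.91, 9.03 and 10.8 CPM in DBA/2J, and in normoxia 16.3, 16 and 16.4 CPM against 7.41, 7.71 and 6.94 CPM. The strains were separate in 7 of 8 conditions and overlapped in normoxia-hyperoxia, where the libraries gave 10.5, 13.5 and 7.16 CPM against 7.47, 6.76 and 5.72 CPM. The log2 difference, DBA/2J minus C57BL/6J, was -0.80 (SE 0.16, adjusted p = 0.00197) at 6 h, -1.03 (SE 0.15, adjusted p = 0.000249) at 24 h, -1.07 (SE 0.19, adjusted p = 0.000301) in normoxia and -0.76 (SE 0.20, adjusted p = 0.0123) in normoxia-hyperoxia (edgeR). The last lost its call without C57BL/6J replicate 2 (-0.49, adjusted p = 0.0583) or without DBA/2J replicate 3 (-0.63, adjusted p = 0.0634) of that condition.

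Acacb fell between 6 h and 24 h and was high in normoxia-hyperoxia. The 6 h controls gave 101, 90.1 and 97.5 CPM in C57BL/6J against 71.5, 79.9 and 67.8 CPM in DBA/2J. By 24 h these were 30.2, 36.6 and 26.2 CPM and 17.2, 34.6 and 35.3 CPM. No library of either strain at 24 h reached the lowest at 6 h, and the log2 difference was -1.70 (SE 0.15, adjusted p = 7.7e-07, edgeR).

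Normoxia then split the strains in Acacb. The C57BL/6J libraries gave 77.7, 95.9 and 87.9 CPM and the DBA/2J libraries 30.6, 35.8 and 39.99 CPM, which overlapped the DBA/2J 24 h controls. Normoxia-hyperoxia gave 122, 125 and 107 CPM in C57BL/6J against 80.7, 92.5 and 90.5 CPM in DBA/2J. From normoxia to normoxia-hyperoxia Acacb rose by a log2 difference of 0.44 (SE 0.10) in C57BL/6J and 1.14 (SE 0.11) in DBA/2J, and the rise was larger in DBA/2J by 0.70 (SE 0.15, adjusted p = 0.00473, edgeR). With all 48 libraries in 1 fit that difference was 0.79 with adjusted p = 0.101.

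Against the 24 h control, normoxia gave Acacb log2 differences of 1.70 (SE 0.24) in C57BL/6J and 0.62 (SE 0.24) in DBA/2J, which differed by -1.08 (SE 0.33, adjusted p = 0.0488, edgeR). This call was lost in 10 of the 12 fits that each left out 1 library, at adjusted p-values from 0.0625 to 0.113, and was kept without C57BL/6J 24 h replicate 2 and without DBA/2J 24 h replicate 1. Among the normoxia libraries, the strain difference itself was -1.23 (SE 0.10, adjusted p = 4.4e-07, edgeR).

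Markers of the thick ascending limb, the tubule segment that makes uromodulin, lay beside these Acacb levels. The sum of Umod and Slc12a1 was 11180 ± 2992 CPM (SD, n = 3) in C57BL/6J and 2760 ± 981 CPM (SD, n = 3) in DBA/2J normoxia slices. It was 10430 ± 5433 CPM and 6821 ± 1105 CPM (SD, n = 3 each) in normoxia-hyperoxia. In the C57BL/6J controls the sum was 8387 ± 704 CPM at 6 h and 3116 ± 1272 CPM at 24 h (SD, n = 3 each). The DBA/2J controls had 4552 ± 1170 CPM and then 2064 ± 1137 CPM (SD, n = 3 each). Slc12a1 fell by 1.96 (SE 0.32, adjusted p = 0.000199) and Umod by 1.38 (SE 0.31, adjusted p = 0.00162) on the log2 scale between 6 h and 24 h (edgeR). Acacb also fell there, and 72% of all genes changed. Both markers were higher in normoxia and in normoxia-hyperoxia than in the 24 h control, where 82% and 68.2% of all genes changed. Neither passed in normoxia-hyperoxia against normoxia or in normoxia against the 6 h control, where Acacb did. Their strain-dependent changes did not pass from the 24 h control to normoxia (median -1.225) or from normoxia to normoxia-hyperoxia (median 1.175, edgeR). Endothelial markers (Pecam1, Kdr and Cdh5) summed to 1047 ± 150 CPM in C57BL/6J against 622 ± 161 CPM in DBA/2J 24 h controls (SD, n = 3 each). Normoxia slices had 450.5 ± 79.4 and 276 ± 75.8 CPM, and normoxia-hyperoxia slices 832 ± 135 and 858 ± 157 CPM (SD, n = 3 each). Of these 3 markers 1 was higher and 2 lower in normoxia than in the 24 h control, and 3 of 3 were higher in normoxia-hyperoxia than in normoxia (edgeR), where 82% and 73.5% of all genes changed. The part of either cell type's share in the Acacb and Cpt1b results was not tested.

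**Figure D2:**
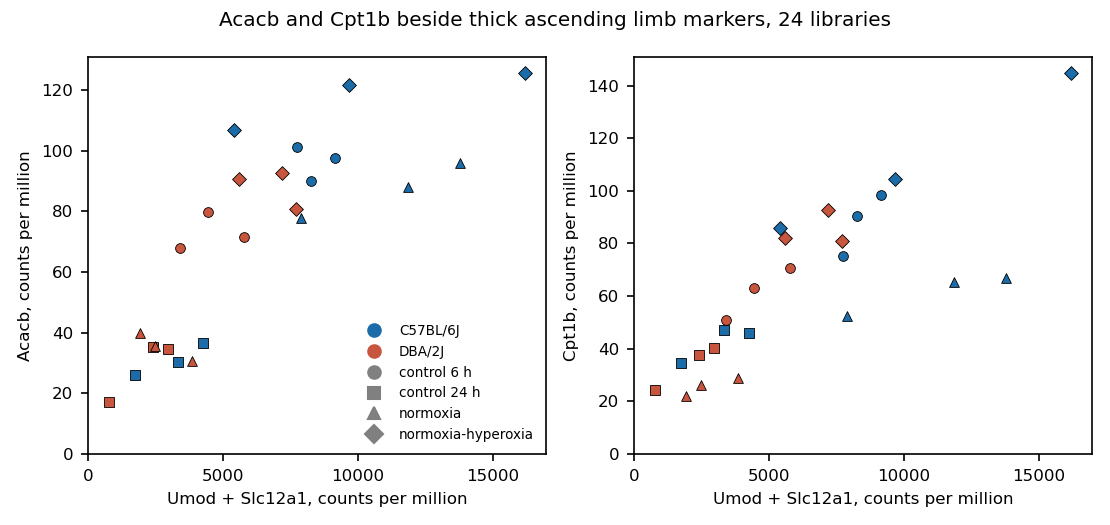
Acacb (left) and Cpt1b (right) in CPM against the sum of the thick ascending limb markers Umod and Slc12a1 in CPM, for the 24 control and oxygen libraries. Each point is 1 library, color is the strain and shape the condition, and a reader should see DBA/2J normoxia (marker mean 2760 CPM) at the lower left beside the 24 h controls, the 3 C57BL/6J normoxia-hyperoxia libraries highest for Acacb, and those at 105 and 145 CPM highest for Cpt1b.

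The carnitine palmitoyltransferases are the enzymes that malonyl-CoA restrains or that act just behind them. Cpt1a (ENSMUSG00000024900, chr19:3322334-3385733, plus strand) encodes the liver-type outer membrane enzyme, Cpt1b (ENSMUSG00000078937, chr15:89416405-89425863, minus strand) the muscle-type enzyme, and Cpt2 (ENSMUSG00000028607, chr4:107903981-107923610, minus strand) the inner membrane enzyme that turns acylcarnitine back into acyl-CoA. Cpt1a was the highest of the 6 genes per kilobase, with group means of 20.9 to 59.3 CPM per kb.

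Cpt1a was low in the 24 h controls and high in normoxia. The 24 h controls gave 138, 175 and 166 CPM in C57BL/6J against 186, 159 and 204 CPM in DBA/2J. Normoxia gave 450.2, 455 and 454 CPM and 396, 417 and 447 CPM, and normoxia-hyperoxia 358, 368 and 363 CPM and 294, 317 and 315 CPM. Each oxygen library was above each 24 h control library, by log2 differences of 1.62 (SE 0.07, adjusted p = 5.2e-12) for normoxia and 1.14 (SE 0.07, adjusted p = 2.6e-09) for normoxia-hyperoxia (edgeR).

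Between strains Cpt1a passed the threshold in normoxia-hyperoxia, where DBA/2J was lower by a log2 difference of -0.33 (SE 0.08, adjusted p = 0.00607, edgeR). The strains' libraries were separate there, in normoxia and with cyclosporin A at 24 h, and overlapped in the other 5 conditions. In the 6 h controls, the 24 h controls and normoxia the differences were -0.10 (SE 0.12), 0.17 (SE 0.12) and -0.04 (SE 0.08), and none passed the threshold (edgeR). Scaling by library totals alone turned the 6 h value to 0.05.

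Cpt2 rose in normoxia and was back near the control level in normoxia-hyperoxia. The 24 h controls gave 39.9, 39 and 42.4 CPM in C57BL/6J against 35.3, 40.5 and 44.5 CPM in DBA/2J. Normoxia gave 106, 89.3 and 89.5 CPM and 91.5, 82.7 and 84.0 CPM, all above every control library, and normoxia-hyperoxia 40.04, 38.2 and 40.1 CPM and 38.3, 36.8 and 35.2 CPM. The log2 difference was 1.44 (SE 0.07, adjusted p = 1.4e-11) for normoxia against the 24 h control and -1.34 (SE 0.06, adjusted p = 5.1e-11) for normoxia-hyperoxia against normoxia (edgeR). Normoxia-hyperoxia against the 24 h control gave 0.09 (SE 0.06, adjusted p = 0.219, edgeR), and -0.08 with library totals alone. Strain differences in Cpt2 did not pass the threshold in the 4 conditions tested, and the strains' libraries overlapped in all 8.

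In normoxia against the 24 h control, Cpt1a, Cpt2 and the proximal tubule marker sums given above were all higher. The sums were 484 ± 115 CPM and 1419 ± 519 CPM (SD, n = 3 each) in the C57BL/6J and DBA/2J 24 h controls. Between strains the sums were higher in DBA/2J in both conditions, whereas the strain differences of Cpt1a and Cpt2 did not pass the threshold there. In normoxia-hyperoxia Cpt1a stayed above its 24 h control while those sums were below theirs. The part of the proximal tubule's share was not tested.

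Cpt1b has a counting limit. Of its 3372 exon bases, 81.4% lie in exons of Gm44502, a same-strand read-through gene that joins Chkb and Cpt1b, and the Gm44502 count was 0.874 to 0.936 of the sum of the Cpt1b and Chkb counts. Reads of Cpt1b and of the read-through transcript cannot be told apart here. The other 5 members share no exon bases with another annotated gene.

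Cpt1b was 47.1, 46 and 34.5 CPM in C57BL/6J against 24.2, 40.4 and 37.6 CPM in DBA/2J 24 h controls. Normoxia gave 52.3, 66.9 and 65.5 CPM in C57BL/6J against 29, 26.1 and 22.2 CPM in DBA/2J. Normoxia-hyperoxia gave 105, 145 and 85.9 CPM and 80.8, 92.7 and 82.0 CPM, so that every library was above every normoxia library of either strain. That rise was a log2 difference of 1.20 (SE 0.13, adjusted p = 3.1e-06, edgeR).

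In normoxia Cpt1b was lower in DBA/2J by a log2 difference of -1.18 (SE 0.19, adjusted p = 0.000305, edgeR), with separate groups. In the 6 h controls the difference was -0.66 (SE 0.19, adjusted p = 0.0208, edgeR). That call was lost without C57BL/6J replicate 2 or 3 or DBA/2J replicate 2 or 3, at adjusted p-values of 0.0787, 0.0831, 0.0505 and 0.0851, and also with library totals alone (0.0562) and with all 48 libraries in 1 fit (0.113). The rise from normoxia to normoxia-hyperoxia was larger in DBA/2J by 0.68 (SE 0.26, adjusted p = 0.0902, edgeR), which passed by DESeq2 (adjusted p = 0.0281), with library totals alone (adjusted p = 0.0336), without the filter (adjusted p = 5.2e-05) and without C57BL/6J normoxia-hyperoxia replicate 2 (0.93, adjusted p = 0.00378 by edgeR). This difference also passed with a replicate block (0.72, adjusted p = 0.0409 by edgeR). The strain difference in normoxia-hyperoxia was -0.50 (SE 0.18, adjusted p = 0.0617, edgeR), and it passed without C57BL/6J replicate 3 of that condition (-0.67, adjusted p = 0.00768), by DESeq2 (-0.50, adjusted p = 0.0252) and without the filter on low counts (-0.54, adjusted p = 8.9e-06). With a replicate block it passed as well (-0.47, adjusted p = 0.0443 by edgeR).

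Over group means Cpt1b went with Acacb (r = 0.951, 16 groups), and the genes most like Acacb were Esrrb (r = 0.992), an orphan nuclear receptor gene, and Vav3 (r = 0.990). The genes most like Cpt1b were Epb41l4b (r = 0.985) and Mok (r = 0.983), those most like Cpt1a Gstk1 (r = 0.995) and Afm (r = 0.995), those most like Cpt2 Ankrd46 (r = 0.972) and Tmem9b (r = 0.971), and those most like Acaca Acp1 (r = 0.970) and Srp9 (r = 0.950). In the order of the 16 group means, the libraries of neighbouring groups overlapped in 14 of 15 pairs for Acaca, Acacb and Cpt2, 12 for Cpt1a and 15 for Cpt1b. From the lowest to the highest group the mean differed 2.86 times for Acaca, 4.30 times for Acacb, 2.84 times for Cpt1a, 4.34 times for Cpt1b and 2.58 times for Cpt2.

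**Figure D3:**
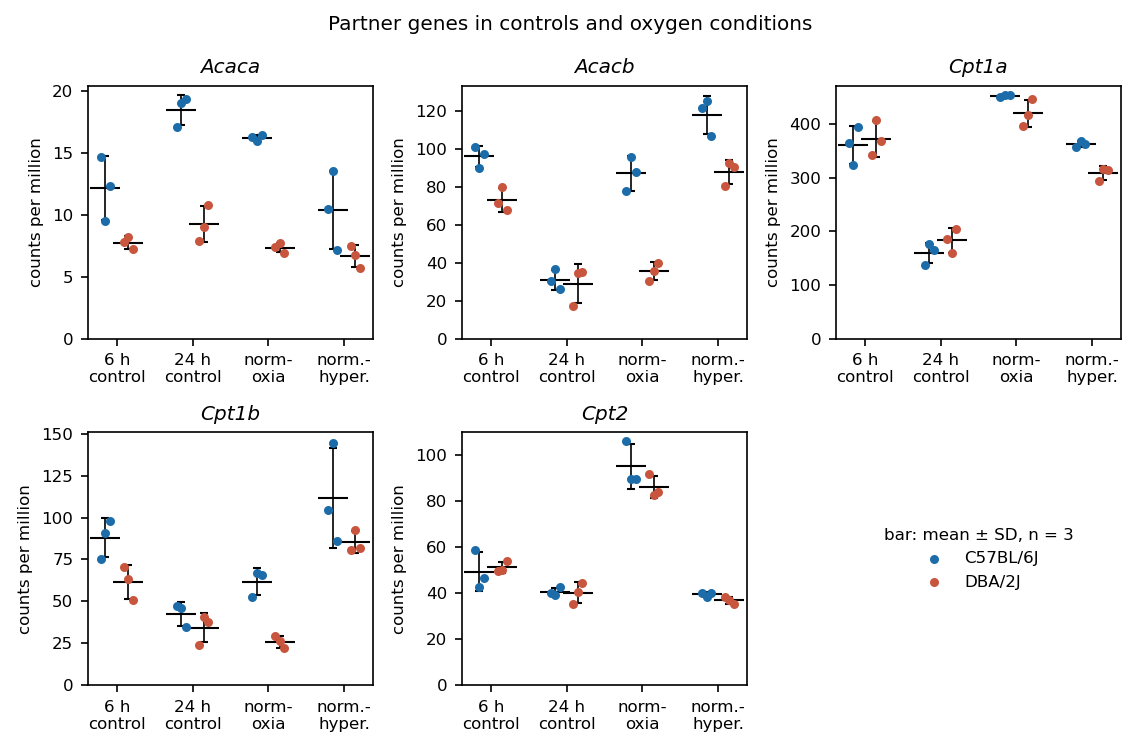
Levels of the 5 partner genes in CPM (vertical axes, each starting at 0) in the controls and oxygen conditions, C57BL/6J in blue and DBA/2J in red. Points are single libraries and bars the mean ± SD of 3, and a reader should see Cpt1a and Cpt2 peak in normoxia, Acacb and Cpt1b peak in normoxia-hyperoxia, and Acaca lower in DBA/2J.

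Taking the 6 genes by comparison, 5 were lower at 24 h than at 6 h and 0 were higher, where 72% of all 16962 genes tested changed and 37.4% were lower. Mlycd fell by 0.99 (SE 0.11, adjusted p = 7.6e-07), Cpt1a by 1.31 (SE 0.09, adjusted p = 5.4e-09), Cpt1b by 1.16 (SE 0.13, adjusted p = 5.1e-06) and Cpt2 by 0.53 (SE 0.08, adjusted p = 2.6e-05) on the log2 scale (edgeR). Acaca had a log2 difference of 0.21 (SE 0.11, adjusted p = 0.0925, edgeR). It passed the threshold with library totals alone (0.43, adjusted p = 0.00353), without C57BL/6J 6 h replicate 1 (0.28, adjusted p = 0.0269) and without DBA/2J 24 h replicate 1 (0.26, adjusted p = 0.0489). None of the 5 genes other than Mlycd changed differently between strains over time by edgeR at an adjusted or an unadjusted p under 0.05, nor by DESeq2, and 0.69% of all genes did.

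In normoxia against the 24 h control 4 of the 5 genes other than Mlycd passed and were higher, where 82% of 17375 genes changed and 42.4% were higher. Acacb rose by 1.16 (SE 0.17, adjusted p = 5.7e-05, edgeR), the mean of the unequal strain changes above. Acaca had a log2 difference of 0.02 (SE 0.08, adjusted p = 0.862, edgeR), which turned to -0.257 (adjusted p = 0.0116) with library totals alone. Cpt1b had 0.34 (SE 0.14, adjusted p = 0.0395, edgeR), with 0.74 (SE 0.19) in C57BL/6J and -0.07 (SE 0.20) in DBA/2J. Its call was lost with RLE size factors (0.30, adjusted p = 0.0602), with library totals alone (0.06, adjusted p = 0.675), with all 48 libraries in 1 fit (0.30, adjusted p = 0.236), with a replicate block (0.35, adjusted p = 0.0845) and in 6 of the 12 fits that left out 1 library. Those were the fits without C57BL/6J 24 h replicate 3, DBA/2J 24 h replicate 1, C57BL/6J normoxia replicate 2 or 3 and DBA/2J normoxia replicate 1 or 2, at adjusted p-values from 0.0529 to 0.0982. The difference between strains was -0.81 (SE 0.27, adjusted p = 0.0652, edgeR) and passed without DBA/2J 24 h replicate 1 (-1.11, adjusted p = 0.00539), by DESeq2 (-0.85, adjusted p = 0.0139), with library totals alone (-0.93, adjusted p = 0.0387) and without the filter (-0.80, adjusted p = 5.2e-06). Of the 5 genes other than Mlycd, 1 changed differently between strains, where 17% of all genes did.

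In normoxia-hyperoxia against the 24 h control 4 of the 5 genes other than Mlycd changed, where 68.2% of 17256 genes changed. Acacb rose by 1.93 (SE 0.16, adjusted p = 6.7e-07), Cpt1b rose by 1.52 (SE 0.16, adjusted p = 5.1e-06) and Acaca fell by 0.48 (SE 0.15, adjusted p = 0.00953), all edgeR. Mlycd averaged 0.83 (SE 0.06) over strains that differed. None of the 5 other genes changed differently between strains by edgeR or DESeq2, 1 did at an unadjusted p under 0.05 (Cpt1a, -0.48, SE 0.14, adjusted p = 0.11 by edgeR), and 1.43% of all genes did. The Cpt1a value passed without DBA/2J 24 h replicate 2 (-0.53, adjusted p = 0.0409), without the filter (-0.50, adjusted p = 0.0272) and with all 48 libraries in 1 fit (-0.48, adjusted p = 0.0462).

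In normoxia-hyperoxia against normoxia all 5 genes other than Mlycd changed, where 73.5% of 17228 genes changed. Acacb by 0.79 (SE 0.07) and Cpt1b by 1.20 (SE 0.13) were higher, and Acaca by -0.48 (SE 0.14, adjusted p = 0.00532), Cpt1a by -0.47 (SE 0.06, adjusted p = 1.5e-06) and Cpt2 by -1.34 (SE 0.06) were lower (edgeR). The Mlycd mean of -0.69 (SE 0.07) averages values of opposite sign. Of the 5 genes other than Mlycd, 1 changed differently between strains, where 18.2% of all genes did. Counts of 4 or 5 of 5, and of 5 of 6 over time, lie near the shares of all genes called in these 4 comparisons, so the counts are no result about these genes.

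Normoxia was also set beside the 6 h control, where 65.8% of 16819 genes changed. Cpt2 was higher by 0.87 (SE 0.08, adjusted p = 2.2e-07), Cpt1a by 0.27 (SE 0.07, adjusted p = 0.00367) and Mlycd by 0.50 (SE 0.10), while Acacb fell by 0.58 (SE 0.07, adjusted p = 5.3e-06) and Cpt1b fell by 0.87 (SE 0.10, adjusted p = 3.0e-06), all edgeR. The Acacb mean stands for unequal strain changes, -0.22 (SE 0.10, adjusted p = 0.0826) with overlapping groups in C57BL/6J and -0.94 (SE 0.10, adjusted p = 3.5e-06) with separate groups in DBA/2J (edgeR). They differed by -0.72 (SE 0.14, adjusted p = 0.0155, edgeR), and with all 48 libraries in 1 fit by -0.74 (adjusted p = 0.223). It was 1 of the 5 genes other than Mlycd to change differently between strains here, where 3.66% of all genes did. Cpt1b had -0.55 (SE 0.20, adjusted p = 0.142, edgeR), which passed with library totals alone (-0.74, adjusted p = 0.0463) and without the filter (-0.62, adjusted p = 0.0032). The Cpt1b value also passed with a replicate block (-0.55, SE 0.11, adjusted p = 0.00561 by edgeR). Acaca had a mean change of 0.19 (SE 0.09, adjusted p = 0.0873, edgeR), and passed without C57BL/6J 6 h replicate 1 (adjusted p = 0.016) or DBA/2J normoxia replicate 3 (adjusted p = 0.0487). Mlycd in C57BL/6J was above its 6 h level by 1.00 (SE 0.15) and in DBA/2J it was at 0.00 (SE 0.14).

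**Figure D4:**
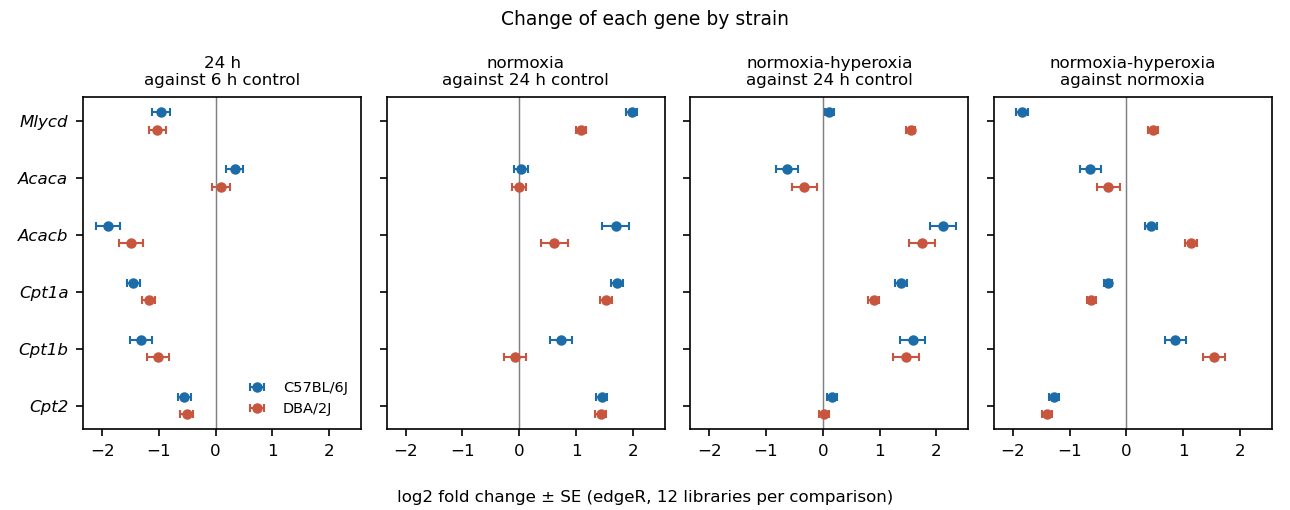
Log2 fold change with its SE (horizontal axis) of the 6 genes in 4 comparisons, C57BL/6J in blue and DBA/2J in red, each from the 12 libraries of that comparison. A reader should see the strains on opposite sides of 0 for Mlycd in normoxia-hyperoxia against normoxia (-1.84 and 0.47), and the comparisons with the 24 h control share its libraries.

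Between strains, the 5 genes other than Mlycd gave 2 calls in the 6 h controls (Acaca and Cpt1b), where 26.2% of all genes differed. Acacb had -0.54 there (SE 0.21, adjusted p = 0.0759, edgeR) and passed by DESeq2 (adjusted p = 0.0457), without the filter (adjusted p = 0.000123) and without DBA/2J 24 h replicate 1 of the same fit (adjusted p = 0.00316). Which genes passed at 6 h depended on the libraries fitted with these controls. With tunicamycin at 6 h, cyclosporin A at 6 h or normoxia in the fit, Acacb passed (adjusted p = 0.0293, 0.0108 and 0.00105, edgeR). Cpt1b passed with normoxia (adjusted p = 0.00291) but not with the drugs (adjusted p = 0.103 and 0.0611, edgeR). The 5 genes gave 1 call in the 24 h controls (Acaca), where 22.2% did. In normoxia Acaca, Acacb and Cpt1b differed, against a background of 46.8%, and in normoxia-hyperoxia Acaca, Acacb (-0.53, SE 0.10, adjusted p = 0.0016) and Cpt1a, against 25.7% (edgeR). The Acacb call in normoxia-hyperoxia was lost when fitted with the 24 h controls in place of normoxia (-0.54, adjusted p = 0.0964) and with all 48 libraries in 1 fit (-0.52, adjusted p = 0.101). All of these were lower in DBA/2J, as were 12.7%, 8.27%, 18.5% and 11.3% of all genes in the 6 h controls, the 24 h controls, normoxia and normoxia-hyperoxia. Reads of both strains were aligned to GRCm38, a C57BL/6J assembly, and the part of this in the strain differences was not tested. The Mlycd values, DBA/2J minus C57BL/6J on the log2 scale, were 1.06 (SE 0.15), 1.00 (SE 0.15), 0.10 (SE 0.09) and 2.41 (SE 0.10) in the same order of conditions. Leaving out 1 library, the normoxia value ran from 0.0156 to 0.213. Mlycd is the member that was higher in DBA/2J in 3 of these 4 conditions with separate groups.

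The ratio of Mlycd to the carboxylases sets removal beside synthesis at the level of RNA, per kilobase and without a test. Enzyme activity and malonyl-CoA itself were not analysed here. In normoxia the ratio of Mlycd to the sum of Acaca and Acacb was 1.66 ± 0.367 (SD, n = 3) in C57BL/6J and 4.10 ± 0.392 (SD, n = 3) in DBA/2J, although Mlycd itself was level there. In normoxia-hyperoxia it was 0.359 ± 0.0419 (SD, n = 3) in C57BL/6J, the lowest mean of the 16 groups, and 2.76 ± 0.14 (SD, n = 3) in DBA/2J. The DBA/2J mean was above the C57BL/6J mean in each of the 8 conditions. The ratio of Cpt1a to Cpt1b was 7.33 ± 1.46 (SD, n = 3) in DBA/2J normoxia and 1.60 ± 0.0928 (SD, n = 3) in DBA/2J normoxia-hyperoxia, with 3.28 ± 0.445 and 1.5 ± 0.372 (SD, n = 3 each) in C57BL/6J.

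None of the 6 genes passed the threshold with either drug, as means of both strains. At either time tunicamycin and cyclosporin A gave 0 of 6 in each of the 4 comparisons by edgeR, by DESeq2 and at an unadjusted p under 0.05. Of all genes, 0% changed with tunicamycin at 6 h, 0% with cyclosporin A at 6 h, 1.38% with tunicamycin at 24 h and 0% with cyclosporin A at 24 h by edgeR. In the same order, DESeq2 called 0, 51, 527 and 22 genes, and edgeR gave 281, 734, 2174 and 1107 genes an unadjusted p under 0.05. The log2 differences of the 6 genes, as means of both strains, ranged from -0.15 to 0.23. Within single strains 1 value had an unadjusted p under 0.05, that of Mlycd in DBA/2J with tunicamycin at 24 h, at 0.31 (SE 0.12, adjusted p = 0.37, edgeR), with -0.0029 (SE 0.12) in C57BL/6J. Mlycd kept separate strain groups in all 4 drug conditions, with DBA/2J at 2.36 to 2.49 times the C57BL/6J mean. Among these drug groups the spread of Mlycd was widest in C57BL/6J cyclosporin A at 6 h, at 22.1, 13.5 and 29 CPM.

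The wider pathway was read from lists of related genes, given as counts of genes past the threshold (edgeR) and the median log2 difference of each list. For 24 h against 6 h, normoxia against the 24 h control, normoxia-hyperoxia against the 24 h control and normoxia-hyperoxia against normoxia, 72%, 82%, 68.2% and 73.5% of all genes were called, with medians over all genes of -0.02, 0.05, 0.00 and 0.02. The counts below are descriptions beside those shares. Of 15 genes of mitochondrial beta-oxidation, the cycle that CPT1 feeds, 15 were lower at 24 h than at 6 h, with a median log2 difference of -1.18 against -0.02 over all genes. Hadh, which oxidises hydroxyacyl-CoA, had -1.65 (SE 0.12) and Decr1, needed for unsaturated fatty acids, -1.57 (SE 0.10). All 15 were higher in normoxia than in the 24 h control (median 1.33 against 0.05 over all genes) and all 15 higher in normoxia-hyperoxia (median 0.74 against 0.00). From normoxia to normoxia-hyperoxia 13 were lower and 1 higher (median -0.58 against 0.02), with Acads, the short-chain dehydrogenase, at -1.31 (SE 0.07) and Hadha at 0.13 (SE 0.05).

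Of 9 genes of mitochondrial malonyl-CoA and carnitine handling, 8 were higher and 0 lower in normoxia than in the 24 h control, with Crot at 2.73 (SE 0.12) and the carnitine transporter gene Slc22a5 at 2.39 (SE 0.10). In normoxia-hyperoxia against normoxia 0 were higher and 6 lower, with Crot at -2.01 (SE 0.12) and Slc22a5 at -1.70 (SE 0.09). At 24 h against 6 h the list gave 0 higher and 6 lower, and in normoxia-hyperoxia against the 24 h control 5 higher and 1 lower, with Acsl1 at 1.17 (SE 0.12), which activates long-chain fatty acids, and Crat at 0.98 (SE 0.07). In the order of comparisons above, the list medians were -0.79, 1.45, 0.29 and -1.32.

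Of 17 fatty acid synthesis genes, 13 were higher and 3 lower in normoxia than in the 24 h control, and 2 were higher and 12 lower in normoxia-hyperoxia than in normoxia. Mlxipl, the gene of the carbohydrate-response factor ChREBP, had 3.98 (SE 0.12) and then -3.52 (SE 0.10). Fasn, which builds palmitate from malonyl-CoA, went the other way in the first of these, at -0.76 (SE 0.06), was 1.13 (SE 0.07) at 24 h against 6 h, and was -1.41 (SE 0.07) in normoxia-hyperoxia against the 24 h control. Between 6 h and 24 h 4 of the list were higher and 11 lower, and in normoxia-hyperoxia against the 24 h control 9 were higher and 7 lower. The list medians in the same order were -0.79, 1.65, 0.39 and -1.04.

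AMPK is the kinase that switches off both carboxylases by phosphorylation. Of 8 genes for its subunits and upstream kinases, 4 were higher and 3 lower in normoxia than in the 24 h control, with the catalytic subunit genes apart: Prkaa2 at 1.01 (SE 0.05) and Prkaa1 at -1.29 (SE 0.06). The regulatory subunit gene Prkab2 had -1.82 (SE 0.08). In normoxia-hyperoxia against normoxia 4 were higher and 2 lower, with Prkab2 at 1.62 (SE 0.11) and Prkaa2 at -0.93 (SE 0.07). At 24 h against 6 h 2 were higher and 4 lower, with Prkag2 at -0.91 (SE 0.06), and in normoxia-hyperoxia against the 24 h control 3 were higher and 2 lower. Here the list medians were -0.16, 0.20, 0.11 and 0.21.

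Of 16 genes of the PPAR-alpha axis, which drives fatty acid oxidation genes, 12 were higher and 4 lower in normoxia than in the 24 h control. The omega-hydroxylase gene Cyp4a10 had 4.27 (SE 0.15), while Plin2, which coats lipid droplets, had -4.54 (SE 0.10) and Pdk4, which spares glucose by blocking pyruvate dehydrogenase, -3.93 (SE 0.21). In normoxia-hyperoxia against normoxia 6 were higher and 8 lower, with Pdk4 at 4.24 (SE 0.23) and Cyp4a10 at -5.33 (SE 0.32). At 24 h against 6 h 4 were higher and 11 lower, with Plin2 at 3.4 (SE 0.14). In normoxia-hyperoxia against the 24 h control 5 of 15 tested were higher and 6 lower, with Ppargc1a at 1.91 (SE 0.10). Medians of this list were -1.38, 1.66, 0.03 and -1.32. The proximal tubule markers moved in the same comparisons, with 6 of 6 lower at 24 h, 6 of 6 higher in normoxia and 6 of 6 lower in normoxia-hyperoxia against either, and their part in these counts was not tested.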

How the data were processed

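RNA was measured in 48 kidney slice libraries, 3 for each of 2 strains and 8 conditions. Per the labels' protocols, RNA was extracted with a Qiagen kit and made into stranded mRNA libraries. The authors deposited raw gene counts, not normalized. Per the submitters' processing notes the tools were bcl2fastq 2.20.0, FastQC 0.11.8, STAR 2.7.9a and featureCounts 1.5.1 on GRCm38; their strand setting and annotation release are not given in the sources used here. Symbols, positions and exon lengths come from GENCODE M21, which holds 55227 of the 55487 IDs.

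CPM here are counts divided by each library's total and multiplied by 1000000. Each comparison was fitted on its own 12 libraries with edgeR 4.0.16 (R 4.3.3): filterByExpr, TMM scaling, robust quasi-likelihood F test, and 1 mean per strain and condition. Treatment changes are means of both strains' changes unless a strain is named. P-values were adjusted by Benjamini-Hochberg over all genes tested, and a gene is said to change at adjusted p under 0.05. SE is the log2 difference divided by the root of its F value. Group likeness used log2 CPM with a prior count of 2 and genes of mean log2 CPM of at least 1. The steps were tested on simulated data.

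The text names the 6 members, the 5 genes most like Mlycd and 2 most like each other member, 3 neighbours on each side of Mlycd, and up to 2 genes each way from each list. A result for 1 listed gene is not reported here. The members and the lists were chosen with earlier results of these data known. Alternatives were RLE or no scaling factors, no filter, DESeq2 1.42.0, all 48 libraries in 1 fit, a replicate block, and leaving out each library.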

Additional observations from a re-analysis of the deposited data

Results flagged for a closer look

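From normoxia to normoxia-hyperoxia the Mlycd level was lower in all 3 C57BL/6J libraries and higher in all 3 DBA/2J libraries. The DBA/2J change minus the C57BL/6J change was 2.31 (SE 0.14) on the log2 scale. The gene was chosen for this pattern, so the difference was not tested. Acacb rose more in C57BL/6J than in DBA/2J from the 24 h control to normoxia, by a difference of -1.08 (SE 0.33, adjusted p = 0.0488, edgeR), a call lost in 10 of the 12 fits that left out 1 library (adjusted p from 0.0625 to 0.113). From normoxia to normoxia-hyperoxia it rose more in DBA/2J, by 0.70 (SE 0.15, adjusted p = 0.00473, edgeR), a call lost with all 48 libraries in 1 fit (0.79, adjusted p = 0.101). From the 6 h control to normoxia the Acacb change was lower in DBA/2J by -0.72 (SE 0.14, adjusted p = 0.0155, edgeR), a call lost with all 48 libraries in 1 fit (-0.74, adjusted p = 0.223). These Acacb values share the normoxia libraries.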

How the results depend on the processing

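Of 1512 single-gene values under the alternatives, 1407 kept their direction and their side of the threshold, 31 lost and 30 gained a call, 40 changed sign and 4 moved by more than 1 SE, and 291 of 324 counts of members stayed within 1.5 times. Counts of the 5 partner genes with a strain-dependent change moved. For normoxia against the 24 h control the count of 1 became 2 with library totals alone, without the filter and with DESeq2, and 0 to 2 leaving out 1 library. For normoxia-hyperoxia against the 24 h control the count of 0 became 1 without the filter and with all 48 libraries in 1 fit, and 0 to 1 leaving out 1 library. For normoxia-hyperoxia against normoxia the count of 1 became 2 with library totals alone and without the filter, 3 with DESeq2 and 0 with all 48 libraries, and 1 to 2 leaving out 1 library. For normoxia against the 6 h control, whose strain-dependent changes and alternatives were chosen after seeing the data, the count of 1 became 2 with library totals alone, without the filter and with the replicate block, and 0 with all 48 libraries. Partner genes differing between strains at 6 h went from 2 to 1 with library totals alone and with all 48 libraries, and 1 to 3 leaving out 1 library; at 24 h they went from 1 to 2 without the filter. Cpt1a gained a strain-dependent change by DESeq2 in normoxia-hyperoxia against normoxia (-0.27, adjusted p = 0.00904) and by edgeR in normoxia against the 24 h control without DBA/2J 24 h replicate 2 (-0.40, adjusted p = 0.0477). The causes were not tested.

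Sign changes were among values that did not pass in the fits above. Acaca in normoxia against the 24 h control was -0.0161 with RLE, -0.257 with library totals alone, -0.0147 with DESeq2, -0.0257 with all 48 libraries and -0.0217 to 0.0822 leaving out 1 library. With library totals alone, Cpt2 was -0.0795 in normoxia-hyperoxia against the 24 h control, -0.0662 for the strain-dependent change over time (-0.0324 without the filter) and 0.0399 for that in normoxia-hyperoxia against normoxia, and at 6 h the strain difference was 0.0453 for Cpt1a and 0.0541 for Cpt2. Leaving out 1 library, strain-dependent changes spanned -0.149 to 0.125 (Cpt2 over time), -0.228 to 0.0362 and -0.20 to 0.0819 (Acaca and Cpt2, normoxia against 24 h) and -0.293 to 0.12 (Cpt1b, normoxia-hyperoxia against 24 h), and strain differences -0.155 to 0.0708, -0.122 to 0.0335 and -0.135 to 0.028 (Cpt2 at 6 h, at 24 h and in normoxia) and -0.302 to 0.125 (Acacb at 24 h).

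The strain-dependent change of Cpt1a in normoxia against the 6 h control was -0.00626 with RLE, -0.153 with library totals alone, -0.0434 without the filter, -0.00608 with DESeq2 and -0.0639 to 0.0964 leaving out 1 library, and that of Cpt2 was -0.146 to 0.0622 leaving out 1 library.

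Library totals alone moved the median of all genes by 0.21 for 24 h against 6 h, -0.27 for normoxia and -0.17 for normoxia-hyperoxia against the 24 h control, on the log2 scale. The share of called genes that were higher went from 48.1% to 60.4%, from 51.6% to 41.5% and from 50% to 39% there. Among called strain-dependent changes, the share that was higher went from 60.7% to 27.4%, from 59.6% to 37.9% and from 66.4% to 78.8% in the same comparisons. That share went from 39.6% to 70.1% in normoxia-hyperoxia against normoxia and from 50.6% to 14.8% in normoxia against the 6 h control.

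Replicate numbers were not taken as pairs, since in no comparison did all 6 same-numbered pairs correlate above 0.1. In DBA/2J all 3 did in normoxia-hyperoxia against normoxia (0.106 to 0.245), in normoxia against the 6 h control (0.134 to 0.21) and with tunicamycin at 24 h (0.141 to 0.175). In C57BL/6J all 3 did in normoxia-hyperoxia against the 24 h control (0.115 to 0.14). Mean correlations were 0.0161 to 0.145. In normoxia against the 6 h control all 12 libraries correlated best with their own number, which is a hint from the data and not the design. With a replicate block, the partner genes with a strain-dependent change in normoxia-hyperoxia against normoxia went from 1 to 2, with Cpt1b gaining a call (0.72, adjusted p = 0.0409 by edgeR). Cpt1b also gained one for the strain difference in normoxia-hyperoxia (-0.47, adjusted p = 0.0443 by edgeR) and lost the one for normoxia against the 24 h control (0.35, adjusted p = 0.0845 by edgeR). Its strain-dependent change in normoxia against the 6 h control gained a call too (-0.55, adjusted p = 0.00561 by edgeR). All genes with a strain-dependent change went from 247 to 618 (normoxia-hyperoxia against the 24 h control) by edgeR; DESeq2 without the block gave 686. In normoxia against the 6 h control they went from 616 to 1462, and DESeq2 gave 1181. In the time comparison they went from 117 to 71, and DESeq2 gave 360.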
